A study of Mus musculus with 12 samples.

Results

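The basement membrane genes described here are Lama1, Lama5, Lamb1, Lamb2 and Lamc1, which encode laminin chains, Nid1 and Nid2 (the nidogens), Agrn (agrin), Hspg2 (perlecan) and Tinagl1 (tubulointerstitial nephritis antigen-like 1). They were taken by gene symbol from the count tables, by a rule that sets no threshold on a measured value, and make up 10 of the 13475 genes listed in both arms of the study. All 10 were listed at baseline and after streptozotocin, and all 10 passed the filter on low counts in every comparison. RNA of isolated mouse glomeruli was sequenced in 4 groups of 3 different mice each, all on a C57BL/6 background. The STZ knockouts were mice lacking DACH1, a nuclear regulator of transcription, specifically in podocytes, and the STZ controls were mice whose genotype is given as control. Both received streptozotocin (STZ), a toxin of the pancreatic beta cells that makes mice diabetic, by intraperitoneal injection, with a daily dose of 50 µg per g of body weight for 5 consecutive days, and RNA was taken 10 days afterwards. The baseline knockouts and the baseline controls were 10 weeks old and are labelled as baseline, without STZ. The title poses the question of which genes DACH1 targets in podocytes, with and without diabetes.

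The labels state neither the age of the STZ mice, nor the sex of any mouse, nor the promoter behind the podocyte-specific deletion. The titles call the STZ controls hetN and the baseline controls Ctrl, without expanding either term, so the 2 sets of controls may differ in kind. Glomeruli were collected after magnetic beads had been perfused through the heart, so each library is bulk RNA of podocytes, endothelium, mesangium and any tubule carried along, and fewer cells of a type cannot be told apart from less RNA per cell.

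The glomerular basement membrane lies between podocytes and endothelium, and both cell types contribute to it. Laminins are trimers of an alpha, a beta and a gamma chain that assemble into a sheet on the cell surface. In the mature glomerulus the trimer is made of the chains encoded by Lama5, Lamb2 and Lamc1, which replaces during development a trimer with the Lama1 and Lamb1 chains, and loss of LAMB2 causes a congenital nephrotic syndrome in humans. Nidogens bind the gamma chain and bridge the laminin sheet to type IV collagen. Agrin and perlecan are heparan sulfate proteoglycans, agrin being the main one of the glomerular basement membrane and perlecan that of the mesangial matrix and vessels. Tinagl1 encodes a secreted matrix protein that binds integrins and laminin.

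Lamb2 was the member that differed between the genotypes. It lies on chromosome 9 from 108479736 to 108490530 on the plus strand (GENCODE M21 on GRCm38, the assembly that mm10 denotes). Lamb1 lies on chromosome 12 from 31265234 to 31329644 on the plus strand, Nid1 on chromosome 13 from 13437551 to 13512269 on the plus strand and Tinagl1 on chromosome 4 from 130164454 to 130175122 on the minus strand. These last 3 were the members with the lowest log2 fold changes of STZ against baseline libraries in both genotypes. The upstream bases of these 4 genes are shown because they are the members that differed most. They are taken from the 250 bases before the most upstream RefSeq start site (GRCm38.p6), end where the GENCODE gene begins, and run 5′ to 3′ on the coding strand. They span chr9:108479612-108479735 (plus strand) for Lamb2, chr12:31265043-31265233 (plus strand) for Lamb1, chr13:13437352-13437550 (plus strand) for Nid1 and chr4:130175123-130175372 (minus strand) for Tinagl1. Capitals mark GGGCGG or CCAAT, boxes common in promoters, on either strand.
Lamb2: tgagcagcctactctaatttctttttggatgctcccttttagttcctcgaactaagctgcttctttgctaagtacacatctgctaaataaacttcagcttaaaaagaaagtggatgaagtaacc
Lamb1: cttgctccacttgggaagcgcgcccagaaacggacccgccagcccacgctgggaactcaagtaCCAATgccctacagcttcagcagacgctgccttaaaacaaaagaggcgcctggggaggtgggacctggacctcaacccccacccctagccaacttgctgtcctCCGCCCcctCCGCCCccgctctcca
Nid1: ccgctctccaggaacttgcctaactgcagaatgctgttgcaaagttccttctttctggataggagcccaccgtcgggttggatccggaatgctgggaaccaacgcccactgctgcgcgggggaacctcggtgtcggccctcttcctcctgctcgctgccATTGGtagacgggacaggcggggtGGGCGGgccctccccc
Tinagl1: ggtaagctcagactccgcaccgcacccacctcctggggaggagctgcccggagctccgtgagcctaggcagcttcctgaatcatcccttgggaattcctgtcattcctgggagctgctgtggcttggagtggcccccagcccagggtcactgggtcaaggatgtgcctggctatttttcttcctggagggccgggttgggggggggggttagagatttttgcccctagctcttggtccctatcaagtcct

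An upstream window of 250 bases was found for 7 of the 10 members. The window of Lamb2 was 43.6% G and C, below the median of 52% over all promoters, and those of the other 6 lay between 60.8% (Tinagl1) and 83.6% (Agrn). GGGCGG was found on either strand in 5 of the 7 windows, 12 times in that of Agrn, 5 times in that of Hspg2, 4 times in that of Lama5, 2 times in that of Lamb1 and 1 time in that of Nid1. Among all 27025 promoter windows of this length 33.0% held it. CCAAT was found in the windows of Lamb1 and Nid1 and in 34.5% of all windows. Neither TATAAA, held by 12.98% of all windows, nor TAATTA, a core of homeodomain sites held by 4.91%, was found in any of the 7. Matches that overlap each other were counted separately, and a match or its absence describes only the letters of the window.

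Total counts ran from 66.1e6 to 78.6e6 in the 6 STZ libraries and from 22.6e6 to 24.9e6 in the 6 baseline libraries, so a level of the STZ arm rests on more counts. Levels are given as CPM, which divides a gene's counts by the library's total, scaled jointly over the 12 libraries by the trimmed mean of M values (TMM). Fold changes come from a fit of each comparison. Dach1 averaged 62.9 CPM in STZ knockouts and 168 CPM in STZ controls, and 54.4 CPM in baseline knockouts and 152 CPM in baseline controls, without overlap in either arm. Summed podocyte markers ran from 33795 to 35133 CPM in STZ knockouts, from 31834 to 39676 in STZ controls, from 20576 to 25412 in baseline knockouts and from 22302 to 30619 in baseline controls, so podocyte RNA was present throughout. Proximal tubule markers varied widely, between 3540 and 13607 CPM in STZ knockouts, 2879 and 14300 in STZ controls, 2502 and 30038 in baseline knockouts and 3747 and 7208 in baseline controls. Xist exceeded Ddx3y, as in females, in 1 of the 3 STZ knockouts (replicate 2), 0 of the 3 STZ controls, 2 of the 3 baseline knockouts and 2 of the 3 baseline controls (replicates 1 and 2 of each). Replicate numbers only name the mice.

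Per kilobase of transcript Tinagl1 and Lamb2 had the highest mean levels of the 10 genes in every group, and Lama1 was far below all others. In baseline controls the mean level per kilobase of transcript was 222 CPM for Tinagl1, 118 for Lamb2, 94.4 for Nid1, 66.8 for Agrn, 45.4 for Lamc1, 42.3 for Lamb1, 39.3 for Nid2, 34.7 for Hspg2, 31.3 for Lama5 and 0.925 for Lama1. Each of the first 4 genes lay apart from the next one in that order over the 3 mice, as did Lama5 from Lama1, whereas the genes from Lamc1 down to Lama5 overlapped their neighbours. In STZ knockouts Lamb2 was first with 178 ± 5.99 CPM per kilobase (SD, n = 3), apart from Tinagl1 with 104 ± 19.7 CPM per kilobase. In STZ controls the same pair had 123 ± 13.9 and 102 ± 32.5 CPM per kilobase and overlapped. Per kilobase of coding sequence the mean of Tinagl1 stood above that of Lamb2 in STZ controls, at 151 and 128 CPM per kilobase, again with overlap, and the pair also overlapped in STZ knockouts.

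**Figure D1:**
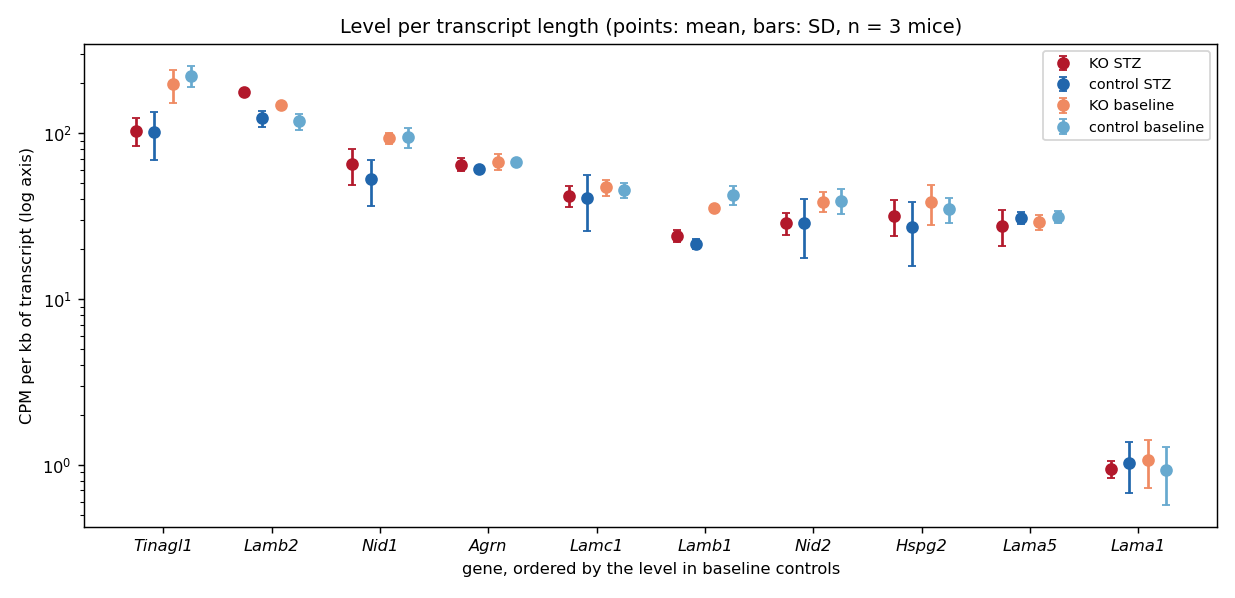
Level of the 10 genes in CPM per kilobase of transcript (log axis), for the 4 groups in the order STZ knockouts, STZ controls, baseline knockouts and baseline controls; points are means and bars the SD of 3 mice. Lama1 sits near 1 CPM per kilobase in every group, and Lamb2 at 178 CPM per kilobase in STZ knockouts is the highest STZ value.

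Lamb2, the beta chain of the mature glomerular laminin, was higher in knockouts than in controls in both arms. It had 1035, 968 and 1005 CPM in the STZ knockouts, against 778, 675 and 624 CPM in the STZ controls. At baseline it had 846, 857 and 809 CPM in the knockouts, against 751, 625 and 623 CPM in the controls. Every knockout library therefore lay above every control library of its arm, as held in both arms for 2.11% of the 13475 genes. After STZ the log2 fold change was 0.54 (SE 0.14, 95% interval 0.21 to 0.86), which missed the threshold over all genes (adjusted p = 0.195, edgeR's quasi-likelihood test with Benjamini-Hochberg adjustment). At baseline it was 0.33 (SE 0.12, 95% interval 0.04 to 0.62, edgeR adjusted p = 0.680). Averaged over both arms, with the arm removed as a block, Lamb2 rose by 0.43 on the log2 scale (SE 0.08, 95% interval 0.25 to 0.62), a 1.35-fold difference, and passed over all genes (edgeR adjusted p = 0.0160). In that averaged comparison edgeR called 1 of the 10 members, as higher, where it called 3.11% of all genes in either direction and 1.81% as higher. The difference of the 2 arms' effects was 0.20 on the log2 scale (95% interval -0.16 to 0.57, edgeR adjusted p = 0.975).

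The averaged call of Lamb2 was lost in 3 of the 12 omissions of a library. Its adjusted p was 0.0507 without baseline control 2, 0.0620 without baseline control 3 and 0.0536 without baseline knockout 2, with log2 fold changes between 0.41 and 0.48 over all 12 omissions. It was 0.45 (adjusted p = 0.00908) with the proximal tubule markers as a covariate, 0.48 (adjusted p = 0.0312) with the podocyte markers and 0.43 (adjusted p = 0.0329) with the sex of the mice, all in edgeR. In the same comparison 2 of 12 podocyte markers were called, both lower, and all 24 proximal tubule markers had positive fold changes with none called. After STZ alone DESeq2 also called Lamb2 (log2 fold change 0.53, adjusted p = 0.0127).

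The genes next to Lamb2 on chromosome 9 had fold changes close to 0. Usp19 on the same strand, which begins 71 bases after the end of Lamb2, had a log2 fold change of -0.06 (edgeR adjusted p = 0.865), and Ccdc71 upstream had -0.0082 (edgeR adjusted p = 0.975). Of the 30 other tested genes that start within 500 kilobases of the start of Lamb2, 1 was called in the averaged comparison, namely Dag1, which encodes the laminin receptor dystroglycan and lies on the minus strand 215777 bases before Lamb2. The other 29 had log2 fold changes between -0.35 (Ip6k2) and 0.43 (Gpx1). The neighbours were looked up after the values were seen.

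**Figure D2:**
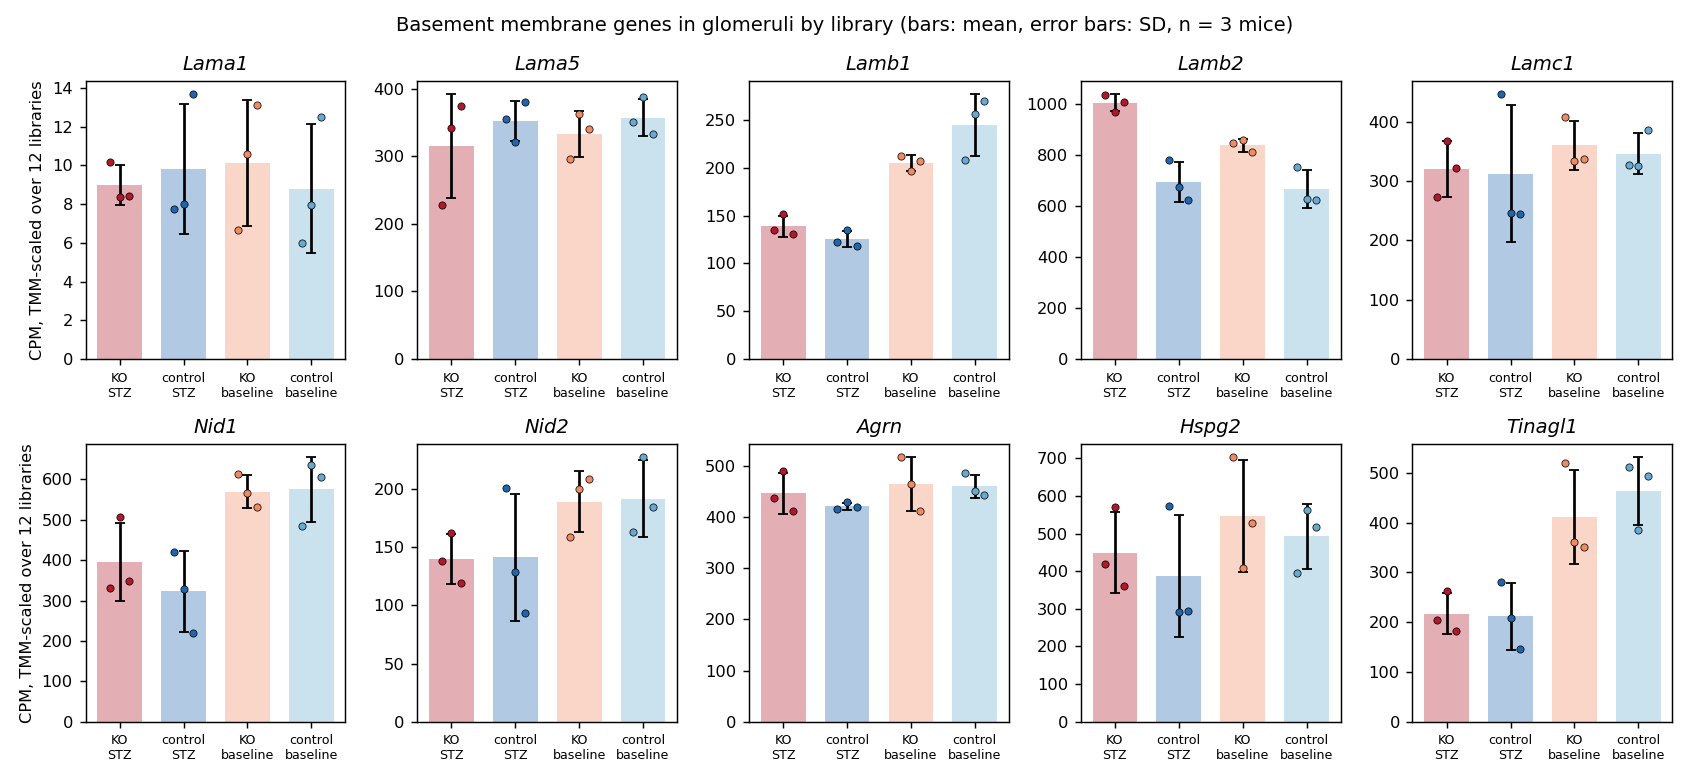
CPM of each of the 10 genes in the 12 libraries, scaled jointly by TMM; from left to right in each panel STZ knockouts, STZ controls, baseline knockouts and baseline controls, with bars for the mean, error bars for the SD of 3 mice and points for single mice. Lamb2 is the gene whose knockout points lie above the control points in both arms, at 968 to 1035 against 624 to 778 CPM after STZ.

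Lamb1, the beta chain of the immature trimer, was the laminin gene with the largest difference between STZ and baseline libraries. It had 135, 152 and 130 CPM in the STZ knockouts, against 212, 196 and 207 CPM in the baseline knockouts. In controls it had 123, 134 and 118 CPM after STZ, against 208, 256 and 269.5 CPM at baseline. All STZ libraries lay below all baseline libraries of the same genotype. The log2 fold change was -0.58 in knockouts (SE 0.11, 95% interval -0.86 to -0.31, edgeR adjusted p = 0.114) and -0.998 in controls (SE 0.13, 95% interval -1.32 to -0.68, edgeR adjusted p = 0.0623), where Lamb1 ranked 35 of 13473 genes by p. DESeq2 called it in both genotypes, with adjusted p-values of 0.000345 in knockouts and 9.14e-08 in controls. Between genotypes it was not called: knockout against control gave 0.16 after STZ (95% interval -0.12 to 0.44) and -0.25 at baseline (95% interval -0.55 to 0.04). The difference between these effects was 0.41 on the log2 scale (SE 0.16, edgeR adjusted p = 0.975).

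The ratio of Lamb1 to Lamb2 compares the RNA of these beta chains within a library, as counts per coding length, and needs no scaling between libraries. It was 0.128, 0.154 and 0.127 in STZ knockouts, against 0.155, 0.196 and 0.186 in STZ controls. At baseline it was 0.246, 0.225 and 0.251 in knockouts, against 0.272, 0.402 and 0.425 in controls. The knockout libraries lay below the controls in both arms, and the STZ libraries below the baseline libraries in both genotypes. The gap after STZ was narrow, from 0.154 in the highest knockout to 0.155 in the lowest control. The group means were 0.136 ± 0.0149 in STZ knockouts, 0.179 ± 0.0211 in STZ controls, 0.241 ± 0.0139 in baseline knockouts and 0.366 ± 0.0824 in baseline controls (SD, n = 3 each). No p is given for the ratio, since it was formed with the results of its parts known. Bulk RNA does not show which trimer or cell type Lamb1 belongs to. In baseline controls Lamb1 averaged 42.3 CPM per kilobase of transcript, and Lama1, the alpha chain of the immature trimer, 0.925. Sums of mesangial markers were also lower in the STZ libraries of both genotypes. Whether the ratio reflects the maturity of the laminin or the mix of cells was not tested.

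**Figure D3:**
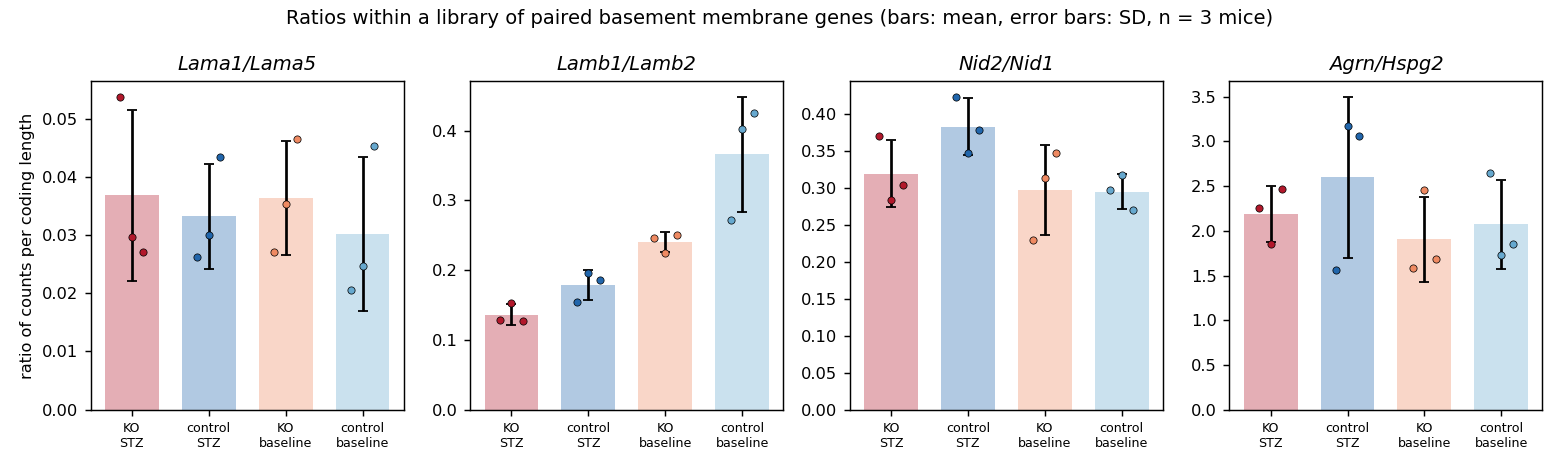
Ratio within each library of 4 pairs of genes, as counts per coding length (Lama1/Lama5, Lamb1/Lamb2, Nid2/Nid1 and Agrn/Hspg2); groups run from STZ knockouts to baseline controls, bars are means, error bars the SD of 3 mice and points single mice. Lamb1/Lamb2 is lowest in STZ knockouts (mean 0.136) and highest in baseline controls (mean 0.366), whereas Lama1/Lama5 overlaps between all groups.

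The alpha chains did not separate the groups. Lama5 (chromosome 2 from 180176373 to 180225859, minus strand), the alpha chain of the mature trimer, had 228 to 375 CPM in STZ knockouts, 321 to 380 in STZ controls, 296 to 362 in baseline knockouts and 333 to 387 in baseline controls. Its averaged difference between knockouts and controls was -0.13 on the log2 scale (95% interval -0.40 to 0.13, edgeR adjusted p = 0.747). The lowest value, 228 CPM in STZ knockout 1, stood alone in its group. Lama1 (chromosome 17 from 67697259 to 67822647, plus strand), which in the adult mouse kidney is known mainly from tubular basement membranes, had 8.39 to 10.2 CPM in STZ knockouts, 7.73 to 13.7 in STZ controls, 6.66 to 13.1 in baseline knockouts and 5.98 to 12.5 in baseline controls. The ratio of Lama1 to Lama5 per coding length averaged 0.0368 in STZ knockouts, 0.0332 in STZ controls, 0.0364 in baseline knockouts and 0.0302 in baseline controls, with overlap in every comparison. Around the group means Lama1 correlated with the proximal tubule markers over the 12 libraries at Pearson's r = 0.78, as a description of libraries that share their tubule content. Its fold change between the genotypes at baseline was 0.20, and -0.06 with the tubule markers as a covariate. Its correlation with the 3 parietal epithelium markers was 0.88.

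Lamc1 (chromosome 1 from 153218922 to 153332786, minus strand), the gamma chain shared by the mature and the immature trimer, did not separate the groups either. It had 273 to 367 CPM in STZ knockouts, 245 to 446 in STZ controls, 334 to 408 in baseline knockouts and 324 to 386 in baseline controls. The averaged log2 difference was 0.05 (95% interval -0.30 to 0.40, edgeR adjusted p = 0.933). The averaged intervals of Lamc1 and Lama5 both ended below the estimate of 0.43 for Lamb2, though that of Lamc1 overlapped the interval of Lamb2. The difference between these chains' fold changes was not tested.

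The nidogens had negative log2 fold changes of STZ against baseline in both genotypes, none of them past the threshold. Nid1 had 330.4, 507 and 349 CPM in STZ knockouts, against 613, 565 and 531 CPM in baseline knockouts. In controls it had 421, 328 and 219.7 CPM after STZ, against 484, 636 and 606 CPM at baseline. The groups did not overlap in either genotype, with log2 fold changes of -0.55 (SE 0.20, edgeR adjusted p = 0.296) in knockouts and -0.86 (SE 0.26, edgeR adjusted p = 0.293) in controls. Nid2 (chromosome 14 from 19751265 to 19811787, plus strand) had 119.5 to 162 CPM in STZ knockouts, against 159 to 208 in baseline knockouts, and 93.8 to 201 CPM in STZ controls, against 163 to 227 in baseline controls. Its log2 fold changes were -0.45 (SE 0.16, edgeR adjusted p = 0.266) and -0.47 (SE 0.29, edgeR adjusted p = 0.542), with overlap in both genotypes. Between knockouts and controls neither gene was called, with averaged log2 differences of 0.14 for Nid1 (95% interval -0.23 to 0.51) and -0.01 for Nid2 (95% interval -0.41 to 0.38). The ratio of Nid2 to Nid1 was 0.348 to 0.424 in STZ controls, against 0.270 to 0.318 in baseline controls, without overlap. In knockouts it overlapped, at 0.284 to 0.371 after STZ, against 0.230 to 0.348 at baseline.

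The proteoglycans differed in their spread. Agrn (chromosome 4 from 156165290 to 156197488, minus strand) had the narrowest spread of the 10, from 412 to 490.2 CPM in STZ knockouts, 415 to 429 in STZ controls, 412 to 517 in baseline knockouts and 444 to 486 in baseline controls, so that its highest library was 1.26 times its lowest. Its averaged difference between knockouts and controls was 0.05 on the log2 scale (95% interval -0.12 to 0.22, edgeR adjusted p = 0.844), an interval that lies below the estimate for Lamb2. All STZ controls lay below all baseline controls for Agrn, by -0.16 on the log2 scale (SE 0.11, edgeR adjusted p = 0.593). Hspg2 (chromosome 4 from 137468769 to 137570630, plus strand) varied more, from 360.1 to 570.0 CPM in STZ knockouts, 291 to 574 in STZ controls, 408 to 703 in baseline knockouts and 396 to 563 in baseline controls. Its averaged difference was 0.18 (95% interval -0.29 to 0.66, edgeR adjusted p = 0.793). The ratio of Agrn to Hspg2 averaged 2.19 in STZ knockouts, 2.60 in STZ controls, 1.91 in baseline knockouts and 2.07 in baseline controls, with overlap in every comparison.

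Tinagl1 had the widest spread of the 10 genes, with a highest library 3.57 times its lowest. It had 205, 262 and 183 CPM in STZ knockouts, against 520.5, 362 and 351 CPM in baseline knockouts. In controls it had 281, 208 and 146 CPM after STZ, against 512, 386 and 493 CPM at baseline. The STZ libraries lay below the baseline libraries in both genotypes, with log2 fold changes of -0.95 (SE 0.23, edgeR adjusted p = 0.154) in knockouts and -1.16 (SE 0.26, edgeR adjusted p = 0.200) in controls. DESeq2 called both, with adjusted p-values of 0.00474 and 0.00206. Between genotypes Tinagl1 overlapped in both arms, and its averaged difference was -0.07 (95% interval -0.46 to 0.32). It was the only member with counts that end in 0.5 in the deposited tables, in 7 of the 12 libraries. How such counts arose is not stated in the labels.

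In the comparison of knockouts with controls, edgeR called 0 of the 10 members after STZ, where 1.07% of 16291 genes were called, and 0 at baseline, where 0.23% of 13475 were. At an unadjusted p under 0.05 the count was 1 of 10 in each arm, Lamb2 both times, against 9.08% of all genes after STZ and 6.92% at baseline. DESeq2 called 1 member after STZ, where it called 564 of 16291 genes, and 0 at baseline, where it called 220 of 13475. Lamb2 was also the 1 member whose groups did not overlap in each arm, against 15.3% of genes after STZ and 11.8% at baseline, so these counts of 1 in 10 were near the background. The median log2 fold change of the 10 was 0.07 after STZ, 0.000353 at baseline and 0.04 averaged, beside -0.02, 0.01 and 0.0033 over all genes. In the interaction edgeR and DESeq2 called 0 members, where edgeR called 0.00742% of genes and DESeq2 31 of 13475. In edgeR Lamb1 was the 1 member under an unadjusted p of 0.05, against 3.68% of genes.

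**Figure D4:**
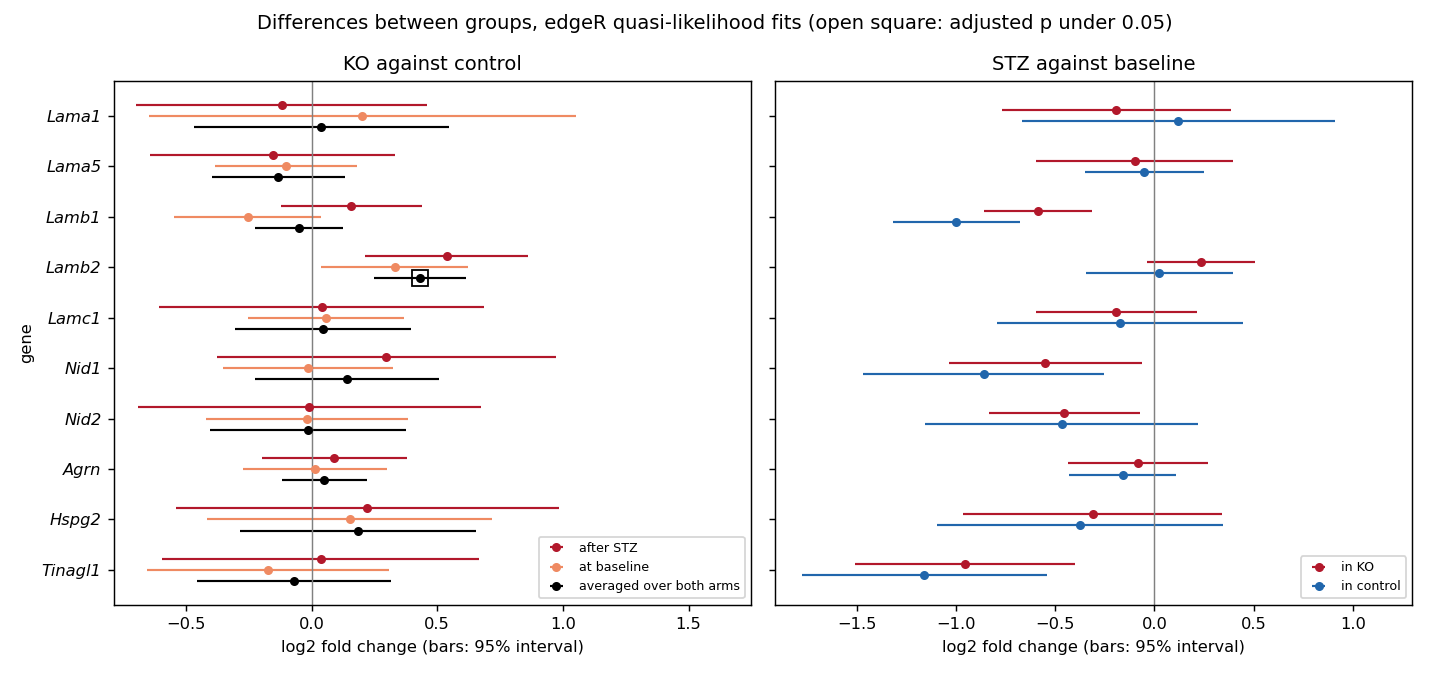
Log2 fold changes of the 10 genes with 95% intervals from edgeR's quasi-likelihood fits; left, knockouts against controls after STZ, at baseline and averaged over both arms; right, STZ against baseline in knockouts and in controls. The open square marks the averaged difference of Lamb2 (0.43), and Lamb1, Nid1 and Tinagl1 lie below 0 with their whole intervals in both comparisons on the right.

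In STZ against baseline libraries, edgeR called 0 of the 10 members in knockouts, where it called 0.178% of 13473 genes, and 0 in controls, where it called 0.23%. The unadjusted p was under 0.05 for 4 members in knockouts (Lamb1, Tinagl1, Nid1 and Nid2), against 14.7% of all genes, and for 3 in controls (Lamb1, Tinagl1 and Nid1), against 12.6%. DESeq2 called 2 members in knockouts (Lamb1 and Tinagl1) and 3 in controls (Lamb1, Nid1 and Tinagl1). Over all 13473 genes it called 804 in knockouts and 410 in controls, many more than edgeR did. The groups did not overlap for 4 members in knockouts, with Lamb1, Nid1 and Tinagl1 lower and Lamb2 higher, against 22.4% of genes, and for 4 in controls, with Lamb1, Nid1, Tinagl1 and Agrn lower, against 20.3%. Lamb1, Nid1 and Tinagl1 were lower without overlap in both genotypes, 3 of 10 members, as were 3.56% of all genes. The median log2 fold change of the 10 was -0.25 in knockouts and -0.28 in controls, beside -0.02 and 0.02 over all genes. These comparisons share their samples with those of the genotypes.

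The STZ libraries had about 3 times the depth of the baseline libraries and list another set of genes (16293, against 13480 at baseline). Treatment, depth, any difference in age and, in controls, the kind of control (hetN or Ctrl) cannot be told apart. Sex, as read from Xist and Ddx3y, was also unevenly spread. Xist was the higher in 0 of the 3 STZ controls and 2 of the 3 baseline controls, and in 1 of the 3 STZ knockouts and 2 of the 3 baseline knockouts. Marker lists of other cell types differed alongside. Of the mesangial markers all 7 were lower in STZ controls and 6 of 7 in STZ knockouts, and their sums ran from 2079 to 2979 CPM in STZ knockouts, 1528 to 2426 in STZ controls, 3346 to 3694 in baseline knockouts and 3169 to 4076 in baseline controls. All 10 glomerular endothelial markers were lower in both, with sums of 6221 to 7700 CPM in STZ knockouts, 6169 to 9972 in STZ controls, 9024 to 12113 in baseline knockouts and 10628 to 10930 in baseline controls. Immune cell markers were higher in STZ libraries, with sums of 65.5 to 150 CPM in STZ knockouts, 65.9 to 348 in STZ controls, 45.2 to 46.1 in baseline knockouts and 35.6 to 54.9 in baseline controls, and the podocyte sums given above were higher as well. No marker of these 4 lists was at 0 in any library, and none of them was called by edgeR in either comparison. Of the 24 proximal tubule markers 0 had positive log2 fold changes in knockouts (median -1.06), against 18 in controls (median 0.21). EdgeR called 0 of these in either genotype. Around the group means Tinagl1 correlated with the endothelial markers at Pearson's r = 0.92, Nid1 at 0.86 and Lamb1 at 0.31 over the 12 libraries. With the immune markers Tinagl1 correlated at 0.51, Nid1 at 0.77 and Lamb1 at 0.08. In the same order of genes r was 0.51, 0.65 and 0.33 with the mesangial markers. It was 0.60, 0.07 and -0.08 with the podocyte markers, and -0.76, -0.54 and -0.08 with the proximal tubule markers. The part of these shifts in the lower levels was not tested. With the sex of the mice as a covariate the log2 fold change in controls was -1.13 for Lamb1, -0.93 for Nid1 and -1.24 for Tinagl1. No STZ control had Xist above Ddx3y, so these values compare the STZ controls with baseline control 3 alone. They therefore cannot separate sex from the other differences between the arms.

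STZ control 1 stood above the other STZ controls for Lamc1, Nid1, Nid2, Hspg2 and Tinagl1 together. That library also had the highest sums in its group for endothelial markers (9972 CPM) and for immune cell markers (348 CPM, against 65.9 and 75.9 CPM in the other STZ controls). Without it the log2 fold change of knockouts against controls after STZ was 0.39 for Lamc1, 0.54 for Nid1, 0.34 for Nid2, 0.62 for Hspg2 and 0.30 for Tinagl1, compared with 0.04, 0.30, -0.0092, 0.22 and 0.04 with it, and still 0 members were called. For Lamb2 it was 0.63 without that library.

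The deviations of the members from their group means, over the 12 libraries, showed which of them varied together, as a description of libraries that share their cell content. Lamc1 and Hspg2 (Pearson's r = 0.83), Nid1 and Nid2 (0.80), Lamc1 and Tinagl1 (0.77), and Nid1 and Hspg2 (0.77) were the closest pairs. The deviations of Lamb1 and Lamb2 ran in opposite directions (-0.56), as did those of Lama1 and Lamb2 (-0.65). Lama1 also ran against Tinagl1 (-0.61) and Agrn (-0.61). Among all 13470 genes compared, Lamb2 was most like Rab11b (0.948), Gusb (0.948) and Map2k1 (0.947), and Lamb1 most like Zfp41 (0.952), Arhgap29 (0.901) and Srl (0.888). Tinagl1 was most like Thbd (0.984), the endothelial thrombomodulin gene, Nid1 most like Vcam1 (0.970), Nid2 most like Col4a2 (0.953) and Hspg2 most like Fbn1 (0.966), the fibrillin gene. Next came Prpf8 (0.972) and Nupl1 (0.970) for Tinagl1, and Numb (0.963) and Ppp6r3 (0.948) for Nid1. Lama1 was most like Slit2 (0.990), Lama5 most like Nfrkb (0.972), Lamc1 most like Rap1a (0.972) and Agrn most like Trpm1 (0.913). These genes were picked as the most alike of 13470, and how high r would be among unrelated genes was not tested.

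The genes around these members in the basement membrane were compared in knockouts and controls averaged over both arms, where edgeR called 1.81% of all genes as higher and 1.3% as lower. EdgeR called 0 of the 6 other laminin chain genes, with 0 of them at an unadjusted p under 0.05, and it called 0 of them in the other 5 comparisons. Of these Lama2, at 19.1 ± 3.35 CPM in STZ knockouts and 15.1 ± 2.30 CPM in STZ controls (SD, n = 3 each), had a log2 fold change of 0.21 (edgeR adjusted p = 0.752). Of the 6 type IV collagen chains 1 rose and 0 fell: Col4a6, a chain found in Bowman's capsule, had 67.3 ± 6.71 CPM in STZ knockouts and 30.2 ± 2.12 CPM in STZ controls, and 43.6 ± 3.72 CPM in baseline knockouts and 25.1 ± 3.20 CPM in baseline controls (SD, n = 3 each). Its log2 fold change was 0.98 (SE 0.09, edgeR adjusted p = 0.000132). Its partner chain Col4a5 had 0.48 (edgeR adjusted p = 0.0930).

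Of 16 tested components of basement membranes other than laminins and type IV collagens, 2 rose and 1 fell. Frem1, an extracellular protein of epithelial basement membranes, had 76.5 ± 13.4 CPM in STZ knockouts and 12.01 ± 1.22 CPM in STZ controls, and 48.5 ± 11.7 CPM in baseline knockouts and 11.4 ± 1.25 CPM in baseline controls (SD, n = 3 each). It rose in both arms, by 2.68 on the log2 scale after STZ (edgeR adjusted p = 0.00217) and by 2.10 at baseline (edgeR adjusted p = 0.0321). The baseline call was lost without any 1 of the baseline controls and without baseline knockout 2, with adjusted p-values up to 0.192. Npnt, the podocyte-derived nephronectin, averaged 2805 CPM in STZ knockouts and 1555 CPM in STZ controls, and rose by 0.80 averaged over the arms (SE 0.10, edgeR adjusted p = 0.00172). Ntn4, a netrin that binds the laminin gamma chain, fell by 0.49 (edgeR adjusted p = 0.0298), a call that held only without STZ control 3 or baseline knockout 1 and was lost in the other 10 omissions of a library, with adjusted p-values up to 0.105.

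Of 13 receptors of laminin and of the basement membrane, 2 rose and 0 fell in the averaged comparison. Dag1, whose product binds laminins, agrin and perlecan, averaged 2264 ± 273 CPM in STZ knockouts and 1202 ± 142 CPM in STZ controls, and 1477 ± 113 CPM in baseline knockouts and 1168 ± 187 CPM in baseline controls (SD, n = 3 each). It rose by 0.63 on the log2 scale (SE 0.11, edgeR adjusted p = 0.0108). Itga2, an integrin subunit of collagen and laminin receptors, rose by 1.61 (SE 0.24, edgeR adjusted p = 0.00408). Bcam, a receptor of the Lama5 chain, was called after STZ only, at 1213 ± 165 CPM in STZ knockouts and 669 ± 32.3 CPM in STZ controls (SD, n = 3 each), with a log2 fold change of 0.86 (edgeR adjusted p = 0.0481). That call was lost without any 1 of the 6 libraries, with adjusted p-values of 0.0736 to 0.224, and the difference between the arms did not pass (interaction 0.89, edgeR adjusted p = 0.975).

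The enzymes that build and edit the heparan sulfate of agrin and perlecan included 23 tested genes, of which 0 rose and 2 fell. Sulf1, an extracellular sulfatase, averaged 92.0 CPM in STZ knockouts and 156 CPM in STZ controls, and 96.7 CPM in baseline knockouts and 190 CPM in baseline controls, and fell by 0.87 on the log2 scale (SE 0.14, edgeR adjusted p = 0.00530). Hs3st3b1, a sulfotransferase, fell by 0.67 (SE 0.11, edgeR adjusted p = 0.00713). Of 12 tested enzymes and inhibitors of matrix turnover 1 rose, namely Bmp1, a metalloproteinase that trims procollagens, by 0.74 (SE 0.13, edgeR adjusted p = 0.00822). The median log2 fold change was 0.0025 for the other laminin chains, 0.11 for the type IV collagens, 0.12 for the receptors, -0.0045 for the heparan sulfate enzymes and 0.23 for the turnover genes, beside 0.0033 over all genes. The podocyte gene Synpo, which encodes the actin-associated protein synaptopodin, fell in the same comparison (-0.56, edgeR adjusted p = 0.0122). The smooth muscle marker Tagln rose (2.26, edgeR adjusted p = 0.00674), at 885 ± 636 CPM in STZ knockouts and 64.9 ± 2.64 CPM in STZ controls (SD, n = 3 each). It was the 1 of 4 tested smooth muscle and renin cell markers with a positive fold change. The median log2 fold change of these 4 markers was -0.12. The part of such shifts in the differences of the partner genes was not tested.

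**Figure D5:**
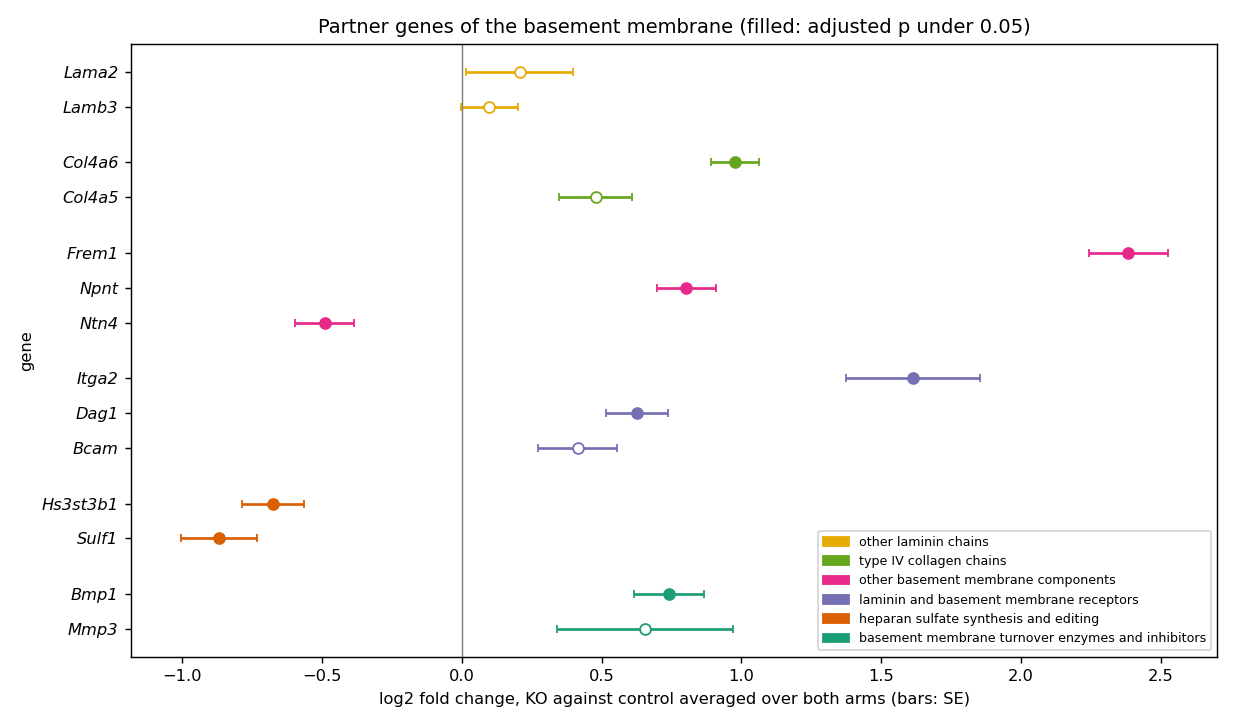
Log2 fold changes of basement membrane partner genes in knockouts against controls averaged over both arms, with bars for the SE; each list shows the genes called in any comparison plus up to 2 of smallest p, and filled points passed at an adjusted p of 0.05. Frem1 has the largest difference (2.38), and Sulf1, Hs3st3b1 and Ntn4 lie below 0.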

How the data were processed

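The authors deposited expected counts (estimated counts) per gene and library, of which 10.5% to 11.5% ended in 0.5. BWA and the build mm10 appear in the submitters' processing notes, with no role given. The counting tool, annotation and use of strand are not stated in the labels. Counts were rounded to whole numbers with 0.5 upwards, and blank cells were taken as 0. Each comparison was fitted over all genes that passed filterByExpr with edgeR 4.0.16 (quasi-likelihood test, TMM scaling, Benjamini-Hochberg adjustment, threshold 0.05) in R 4.3.3. DESeq2 1.42.0 was an alternative. The fits were tested on simulated data. Comparisons of 2 groups recovered 1.49% to 4.48% of 1.5-fold, 20.9% to 35.8% of 2-fold and 81.8% to 95.5% of 4-fold changes. The averaged comparison recovered 35.8% of 1.5-fold and 76.1% of 2-fold changes, and the interaction 0% and 14.9%. A member that was not called may therefore still differ by such folds. Gene coordinates and lengths came from GENCODE M21 and upstream sequences from RefSeq. The members and the gene lists were chosen with earlier results of these data known. Of each other list the text names the genes called in any comparison plus up to 2 of smallest p in the averaged one. Likeness was Pearson's r of log2 CPM (prior count 2) around the group means, among genes of at least 1 CPM on average. A block for the prefix of the baseline titles and covariates for podocyte markers and for sex, taken from whether Xist exceeds Ddx3y, were chosen after seeing the data. Genes annotated on the opposite strand overlap Nid1, Nid2 and Lamc1. On the same strand Mir7005 overlaps Lama5, Gm38009 overlaps Lamc1 and Mir7018 overlaps Hspg2. None of these overlapping genes is listed in the count tables under its GENCODE M21 symbol. A result for 1 gene that the naming rule selects is not reported here.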

Additional observations from a re-analysis of the deposited data

How the results depend on the processing

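No paired analysis was possible because the labels give no replicate number that the groups share, and the numbers used here only name the mice. The baseline titles of both genotypes share the prefixes S10 and S11, whose meaning is not stated. With that prefix as a block, chosen after seeing the data, 0 members were called at baseline and 1 averaged over both arms, Lamb2 at a log2 fold change of 0.44 (edgeR adjusted p = 0.0149). The count of members called was 0 in knockouts against controls after STZ but 1 with DESeq2 and 1 with all 12 libraries in 1 fit. Over all genes these 2 settings called 564 of 16291 and 289 of 13475. In STZ against baseline the count of members was 0 in each genotype. In knockouts it was 2 with DESeq2, 2 with the proximal tubule covariate and 1 with all 12 libraries in 1 fit, where 804, 273 and 252 of all genes were called. In controls it was 3, 1 and 1 under the same settings, where 410, 48 and 69 of all genes were called. For the averaged comparison the count of members was 0 to 1 when any 1 library was left out, and that of all genes 301 to 440. The causes were not tested. The podocyte and sex covariates were chosen after seeing the data. In knockouts against controls after STZ the sex covariate in effect leaves out STZ knockout 2. In STZ against baseline in controls it leaves baseline control 3 as the only baseline library that bears on the difference. Uncalled log2 fold changes that turned sign, in knockouts against controls at baseline, were Lama1 (-0.058 with the tubule and -0.17 with the podocyte covariate), Nid1 (0.0020, tubule) and Tinagl1 (0.12, podocyte). After STZ they were Lamc1 (-0.079, sex), Nid2 (0.014, tubule, and 0.049, podocyte) and Tinagl1 (-0.14, sex). Averaged over both arms they were Lama1 (-0.045, tubule, and -0.24, podocyte) and Tinagl1 (0.0032, tubule, and 0.12, podocyte). In STZ against baseline they were Agrn in knockouts (0.0054, sex), and in controls Lama1 (-0.024, tubule, and -0.38, sex) and Lama5 (0.055, sex).

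Leaving out 1 library turned the sign of further uncalled members. In knockouts against controls at baseline the ranges were -0.083 to 0.098 for Agrn, -0.083 to 0.32 for Hspg2, -0.028 to 0.54 for Lama1, -0.055 to 0.14 for Lamc1, -0.12 to 0.064 for Nid1 and -0.12 to 0.12 for Nid2. After STZ they were -0.27 to 0.18 for Lama1, -0.30 to 0.035 for Lama5, -0.12 to 0.39 for Lamc1, -0.24 to 0.34 for Nid2 and -0.18 to 0.30 for Tinagl1. Averaged over both arms they were -0.068 to 0.22 for Lama1, -0.026 to 0.22 for Lamc1, -0.12 to 0.16 for Nid2 and -0.17 to 0.059 for Tinagl1. In STZ against baseline they were, in knockouts, -0.17 to 0.015 for Agrn, -0.41 to 0.029 for Lama1 and -0.25 to 0.090 for Lama5, and in controls -0.18 to 0.47 for Lama1, -0.10 to 0.013 for Lama5 and -0.076 to 0.12 for Lamb2.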
